A study of Danio rerio with 6 samples.

Results

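The genes described here encode the enzymes of glycolysis, of its reversal in gluconeogenesis and of the pentose phosphate pathway. They were followed in whole zebrafish larvae at 4 days post fertilisation (dpf). The list held 43 genes, and 38 of them were measured, among 19260 genes on the array that a probe set names alone. A probe set is the group of probes that reads 1 transcript, and each of the 38 genes had 1 of its own. One gene was matched through an older name, since *g6pca.1* stands under *g6pc1a.1* on the array. Of the other 5, *pgam2*, *pklr*, *rpe* and *fbp1b* share their probe sets with another gene symbol, and *gck* was not analysed here.

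There were 3 arrays of wild-type larvae of the Tu strain (WT) and 3 of homozygous *il7r*-/- larvae. The *il7r*-/- larvae carried a CRISPR/Cas9 frameshift deletion in the gene of the interleukin 7 receptor. According to the methods, whole larvae were pooled for each sample, the samples came from 3 batches, and a single mutant line was used. The sources do not say that the WT larvae came from the same crosses as the mutants, so line and mutation cannot be told apart. The values are RMA expression values, which were read as log2, and every change is *il7r*-/- minus WT. The probe set of *il7r* itself lay near the array's background in all 6 arrays (1.40 to 1.80), so it could not check the genotype labels. WT replicate 3 was the least typical array. Across all probe sets its values correlated at 0.965 with both other WT arrays, against 0.977 between WT replicates 1 and 2 and 0.979 to 0.980 among the *il7r*-/- arrays.

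Glycolysis splits glucose into pyruvate and yields ATP without oxygen, and the pentose phosphate pathway draws on the same glucose-6-phosphate to make NADPH and ribose. Vertebrates use different isoenzymes of the same step in muscle, in brain and eye, and in liver, and the teleost genome duplication left zebrafish with pairs of paralogs for many of them. Photoreceptors depend heavily on glycolysis and, in mammals, convert much of their glucose to lactate. Fast muscle burns glycogen through the same steps, and liver runs them backwards to release glucose.

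Most of these enzyme genes had somewhat lower values in *il7r*-/- larvae, and 1 passed the test. A change below 0 was seen in 32 of the 38 genes, where 55.0% of all genes had one. The median change was -0.30, against -0.02 over all genes. In 21 genes the highest *il7r*-/- value lay under the lowest WT value, and in 2 genes the order was the opposite, against 13.4% and 8.84% of all genes. Bright genes leaned downwards in general. Among the 8103 genes at or above the lower quartile of these enzymes' levels, 59.3% had a change below 0 and 19.1% lay below WT without overlap. One gene passed the test, and none was called in the other direction. The test was limma's moderated test with Benjamini-Hochberg adjustment over all 75212 probe sets, with thresholds of 0.05 on the adjusted p and of 1.5 on the fold, by which 0.182% of all genes were lower and 0.0519% were higher. With the adjustment taken over the 20806 probe sets that name 1 gene alone, none of the 38 passed, where 0.151% of all genes were lower and 0.0467% higher. At an unadjusted p under 0.05, 18 of the 38 passed, where 12.3% of all genes did. Refitting the whole model on those 20806 probe sets, which was added once the data had been seen, called 4 of the 38 lower and none higher, where 0.909% and 0.197% of all genes were called. The methods' one-way ANOVA without adjustment, at the same fold, called 6 lower and none higher, where it called 1.98% and 0.488% of all genes. Without WT replicate 2 the number of genes below 0 was 28, and it was 30 to 33 without each other array.

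**Figure D1:**
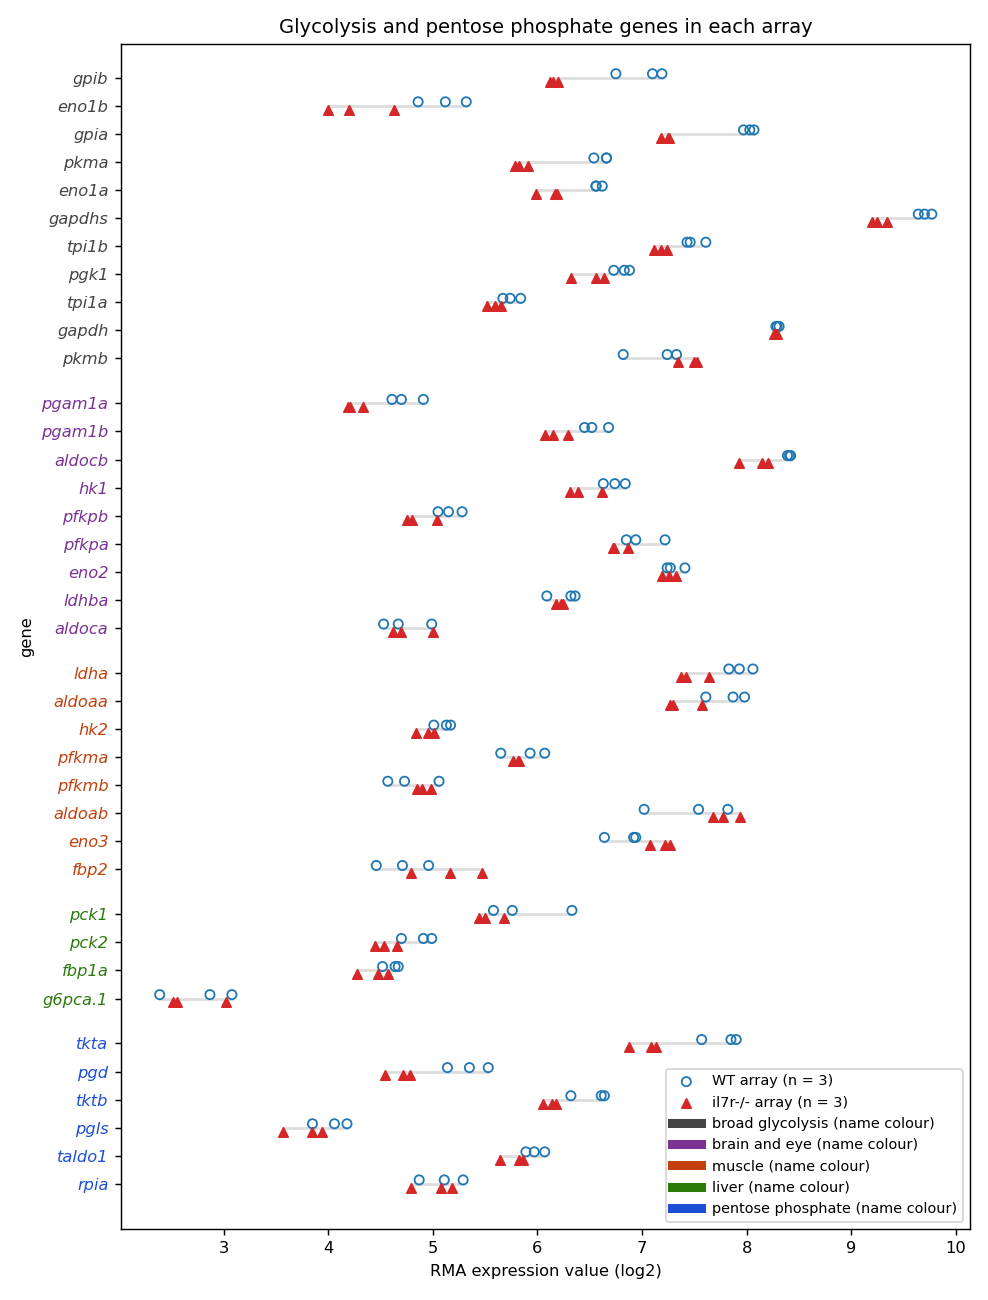
RMA expression value (log2) of each of the 38 genes in the 3 WT arrays (open circles) and the 3 il7r-/- arrays (filled triangles), grouped by isoenzyme class. The groups do not overlap in 21 genes that are lower in il7r-/- larvae and in 2, pkmb and eno3, that are higher.

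The isomerase step held the gene that passed. *gpia* and *gpib* encode glucose-6-phosphate isomerase, which turns glucose-6-phosphate into fructose-6-phosphate at the point where glycolysis and the pentose phosphate pathway part. *gpia* had values of 8.07, 8.03 and 7.97 in the WT arrays and 7.18, 7.26 and 7.25 in the *il7r*-/- arrays. Each group was tight and they lay far apart. *gpia* thus fell by 0.79 (95% interval of the change -1.03 to -0.56, 1.73-fold lower, adjusted p = 0.0459 from limma). *gpib* had values of 7.10, 7.19 and 6.75 in WT and 6.20, 6.15 and 6.12 in *il7r*-/- larvae. The *il7r*-/- arrays agreed closely, and WT replicate 3 was the lowest of its group but still well above them. The change of *gpib* was -0.86 (standard error 0.14, adjusted p = 0.0979 from limma), which did not pass. Leaving out any 1 of the 6 arrays ended the call of *gpia*, with an adjusted p of 0.0607 to 0.197 and a change of -0.82 to -0.77. Calls were lost across the whole array in most of these fits. Of all 19260 genes, 2 were called lower without WT replicate 2, 50 without WT replicate 3 and 0 without any 1 of the other arrays. *gpib* was called without WT replicate 3 (change -0.99, adjusted p = 0.0480). Both paralogs were called in the refit to probe sets that name 1 gene (adjusted p = 0.0105 and 0.0283).

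At the regulated steps of upper glycolysis the values differed less. Hexokinase traps glucose in the cell by phosphorylating it, and *hk1* is a form found in mammalian brain. *hk1* had values of 6.63, 6.84 and 6.74 in WT and 6.62, 6.39 and 6.31 in *il7r*-/- larvae, so that the groups only just failed to overlap, and its change was -0.30 (adjusted p = 0.433 from limma). *hk2*, a form found in muscle and fat among other tissues, had a change of -0.17 with groups that overlapped. Phosphofructokinase commits the sugar to glycolysis, and its *pfkp* forms are named for platelets and are found in mammalian brain. *pfkpb* had values of 5.05, 5.28 and 5.15 in WT and 5.04, 4.80 and 4.75 in *il7r*-/- larvae, a change of -0.30 with a narrow gap between the groups. *pfkpa* had a change of -0.23. The muscle forms had changes near 0, of -0.08 for *pfkma* and 0.12 for *pfkmb*, and in both the WT values spanned the *il7r*-/- values. None of the 4 phosphofructokinase genes passed, with adjusted p values of 0.434 to 0.852 from limma.

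Aldolase cleaves the 6-carbon sugar, and its 4 genes on this list had changes of both signs. *aldoaa* and *aldoab* are named for aldolase A, the muscle form. *aldoaa* had values of 7.98, 7.87 and 7.61 in WT and 7.57, 7.27 and 7.30 in *il7r*-/- larvae, a change of -0.44 (adjusted p = 0.325 from limma) with groups that did not overlap. *aldoab* had the opposite sign. Its values were 7.54, 7.82 and 7.02 in WT and 7.94, 7.77 and 7.68 in *il7r*-/- larvae, a change of 0.34 (adjusted p = 0.590), and WT replicate 3 was far below the others. Without that array the change of *aldoab* was 0.12. *aldocb*, named for aldolase C, the brain form, had values of 8.39, 8.41 and 8.42 in WT and 8.20, 7.93 and 8.15 in *il7r*-/- larvae. All WT arrays of *aldocb* stood within a narrow band above the mutants, with a change of -0.31 (adjusted p = 0.360), while its paralog *aldoca* had a change of 0.04.

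**Figure D2:**
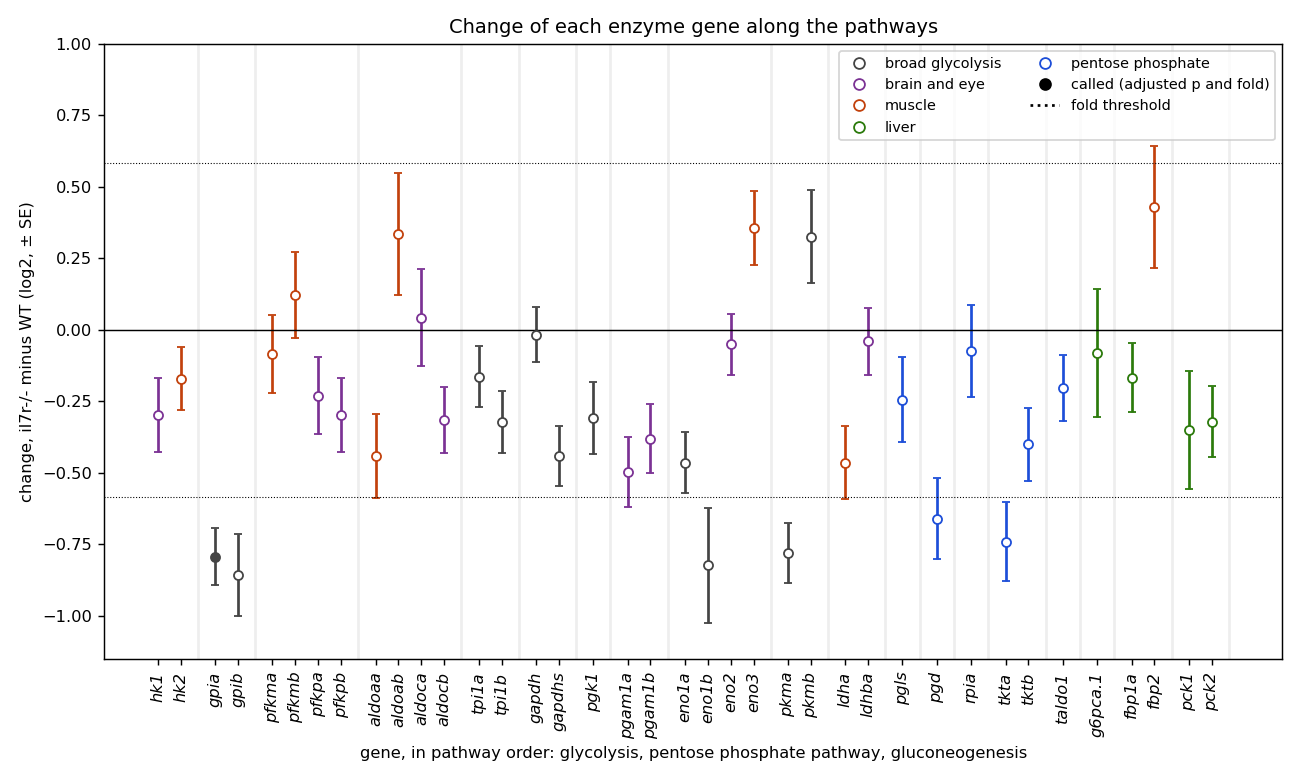
Change of each gene (il7r-/- minus WT, log2, ± standard error from limma, 3 arrays per group) in pathway order, coloured by isoenzyme class. The filled point is gpia, the one gene that passed, and most points lie below 0, while fbp2, eno3, aldoab, pkmb, pfkmb and aldoca lie above it.

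The steps from triose phosphate to pyruvate carry the energy yield of glycolysis, and here too paralogs had unlike changes. Triosephosphate isomerase interconverts the products of aldolase, and the change was -0.32 for *tpi1b* and -0.16 for *tpi1a*, both with groups that did not overlap. *gapdhs*, a glyceraldehyde-3-phosphate dehydrogenase gene whose mammalian namesake is a testis form, had values of 9.77, 9.70 and 9.64 in WT and 9.34, 9.20 and 9.25 in *il7r*-/- larvae, a change of -0.44 (adjusted p = 0.193 from limma). *gapdh*, often used as a reference gene, hardly differed between the groups. Its values were 8.29, 8.31 and 8.28 in WT and 8.28, 8.29 and 8.26 in *il7r*-/- larvae, a change of -0.017 with a 95% interval of -0.25 to 0.21. After quantile normalization the sign of *gapdh* turned (0.029). *pgk1*, which makes the first ATP of the pathway, had a change of -0.31. Phosphoglycerate mutase moves the phosphate group, and its brain forms *pgam1a* and *pgam1b* had changes of -0.50 and -0.38. *pgam1a* had values of 4.91, 4.61 and 4.70 in WT and 4.33, 4.19 and 4.21 in *il7r*-/- larvae, and *pgam1b* had 6.45, 6.52 and 6.68 against 6.15, 6.29 and 6.07. Both lay below WT in every array, and neither passed (adjusted p = 0.206 and 0.297).

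Among the enolases, which form phosphoenolpyruvate, the ubiquitous and the muscle forms had changes of opposite sign. *eno1b*, named for the form found in most tissues, had values of 5.32, 5.12 and 4.86 in WT and 4.63, 4.00 and 4.20 in *il7r*-/- larvae. The change came to -0.82 and did not pass (standard error 0.20, adjusted p = 0.204). The arrays of each group of *eno1b* were scattered but did not overlap. *eno1a* had values of 6.62, 6.56 and 6.56 in WT and 6.19, 5.99 and 6.17 in *il7r*-/- larvae, a change of -0.46 with a clear gap (adjusted p = 0.190). *eno3*, the muscle form, had values of 6.94, 6.92 and 6.64 in WT and 7.22, 7.27 and 7.08 in *il7r*-/- larvae, so that every mutant array lay above every WT array. Its change was 0.36 (adjusted p = 0.357) and 0.26 without WT replicate 3. *eno2*, the neuronal form, did not differ beyond its spread, with a change of -0.05 and a 95% interval of -0.31 to 0.21.

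Pyruvate kinase closes the pathway, and its *pkm* paralogs gave the widest split on the list. *pkma* had values of 6.66, 6.54 and 6.66 in WT and 5.79, 5.82 and 5.91 in *il7r*-/- larvae. The gap between the groups was many times the spread within them, and the change was -0.78 (standard error 0.10, 1.72-fold lower), just short of the threshold (adjusted p = 0.0544 from limma). *pkmb* had values of 7.24, 7.33 and 6.82 in WT and 7.53, 7.50 and 7.34 in *il7r*-/- larvae. Every mutant array lay above every WT array for *pkmb*, although the closest values were 7.34 and 7.33, and its change was 0.33 (adjusted p = 0.490) and 0.17 without WT replicate 3. *pkma* was called in the refit to probe sets that name 1 gene (adjusted p = 0.0130). Lactate dehydrogenase regenerates NAD+ by making lactate, and *ldha*, named for the muscle form, had values of 7.93, 8.06 and 7.83 in WT and 7.42, 7.37 and 7.64 in *il7r*-/- larvae. All mutant arrays of *ldha* were lower (change -0.46, adjusted p = 0.241), whereas *ldhba*, named for the heart form, had a change of -0.04 and a 95% interval of -0.32 to 0.24.

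Of the pentose phosphate pathway, 6 genes of the list were measured. Each had a lower mean in *il7r*-/- larvae, and the median change was -0.32. *pgd* encodes the dehydrogenase that yields the second NADPH of the oxidative branch. Its values were 5.53, 5.14 and 5.35 in WT and 4.78, 4.72 and 4.54 in *il7r*-/- larvae, without overlap, and they differed by -0.66 on average (standard error 0.14, adjusted p = 0.163). *tkta*, a transketolase gene of the branch that returns sugars to glycolysis, had values of 7.85, 7.90 and 7.57 in WT and 7.13, 7.09 and 6.88 in *il7r*-/- larvae. The WT arrays of *tkta* lay clear above the mutants, its change was -0.74 (standard error 0.14, 1.67-fold lower), and it missed the threshold (adjusted p = 0.121). In the refit to probe sets that name 1 gene *tkta* was called (adjusted p = 0.0398). Its paralog *tktb* had values of 6.64, 6.61 and 6.32 in WT and 6.05, 6.14 and 6.18 in *il7r*-/- larvae, a change of -0.40 without overlap. The lactonase gene *pgls* was dim, with values of 3.85, 4.06 and 4.18 in WT and 3.57, 3.94 and 3.85 in *il7r*-/- larvae, and the groups overlapped (change -0.24). The change was -0.20 for *taldo1*, transaldolase, without overlap, and -0.07 for *rpia*, ribose-5-phosphate isomerase, with overlap. Of 6 genes, 4 lay below WT without overlap, where 13.4% of all genes did. None passed over all probe sets, where 0.182% of all genes were called lower and 0.0519% higher.

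The genes of gluconeogenesis, which bypass the irreversible steps of glycolysis, gave few differences beyond the spread between arrays. *pck1* and *pck2* encode phosphoenolpyruvate carboxykinase, an early step of the pathway. *pck1* had values of 5.58, 5.76 and 6.33 in WT and 5.50, 5.44 and 5.68 in *il7r*-/- larvae, and its change of -0.35 became -0.13 without WT replicate 3, the highest array. *pck2* had values of 4.70, 4.99 and 4.91 in WT and 4.53, 4.45 and 4.66 in *il7r*-/- larvae, a change of -0.32 (adjusted p = 0.392 from limma) without overlap. *fbp1a*, the liver form of fructose-bisphosphatase, had values of 4.67, 4.64 and 4.52 in WT and 4.28, 4.48 and 4.57 in *il7r*-/- larvae, which overlapped (change -0.17). *g6pca.1*, whose enzyme frees glucose from its phosphate in liver, was dim at 2.39, 3.08 and 2.87 in WT and 2.52, 2.56 and 3.02 in *il7r*-/- larvae. The mutant values of *g6pca.1* fell inside the WT range, and its sign turned without WT replicate 2 or *il7r*-/- replicate 1. *fbp2*, the muscle fructose-bisphosphatase, had the highest change of the 38 measured genes, at 0.43. Its values were 4.71, 4.96 and 4.46 in WT and 5.16, 4.79 and 5.47 in *il7r*-/- larvae, which overlapped (adjusted p = 0.489 from limma).

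Isoenzymes were also set side by side by tissue, mostly that for which their mammalian namesakes are known. By exception, *gapdhs* was counted among the genes of broad use and *ldhba* among the brain and eye forms. The *pkm* pair, named for the muscle form of pyruvate kinase, was also counted among the genes of broad use. Counting the *pkm* pair among the muscle forms instead would leave the broad and the muscle median unchanged. The counts of genes without overlap in these classes do rest on this placement. The 11 genes of broad use (isomerases, *gapdh*, *gapdhs*, *pgk1*, *eno1a*, *eno1b* and the *pkm* pair) had a median change of -0.44, with 9 below WT and 1 above it without overlap. The 9 brain and eye forms had a median of -0.30, with 5 below WT without overlap, and the 4 measured liver forms had -0.24, with 1. Those 4 are all genes of gluconeogenesis. Of the liver genes left out, the probe set of *pklr* had a change of 0.50 and that of *fbp1b* and *erlin2* -0.83. The 8 measured muscle forms had a median of 0.02, with 4 genes on each side of 0, 2 below WT and 1 above it without overlap. Over all genes, 13.4% lay below WT and 8.84% above it without overlap. The muscle median turned its sign without WT replicate 3 (-0.06), without *il7r*-/- replicate 1 and with array weights, so it has no direction. Averaged over the muscle forms, the WT arrays ran from 6.12 to 6.45 and the *il7r*-/- arrays from 6.27 to 6.37, one range inside the other. Averaged over the broad forms, WT ran from 7.05 to 7.19 and *il7r*-/- from 6.68 to 6.78, and over the brain and eye forms from 6.29 to 6.35 against 6.04 to 6.16. These pairs of ranges did not overlap. Nor did those over all 19260 genes, at 4.60 to 4.63 in WT and 4.56 to 4.59 in *il7r*-/- larvae. The difference between classes was not tested.

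Lists of tissue markers were set beside the enzymes. None of the muscle, lens, brain, liver or red blood cell markers passed the test in either direction. Of all genes, 0.182% passed it as lower and 0.0519% as higher, so few would be looked for in lists this short. Over all genes, 13.4% lay below WT and 8.84% above it without overlap. All 14 skeletal muscle markers, such as *ckma*, muscle creatine kinase, had a change above 0, and 5 of them lay above WT without overlap, with a median of 0.22 and a mean level of 8.66 to 9.06 in WT and 9.10 to 9.15 in *il7r*-/- larvae. Without WT replicate 3 the median of the muscle markers was 0.077, and 13 of the 14 were above 0. That array had the lowest mean of both the muscle markers and the muscle isoenzymes. All 14 photoreceptor markers were lower in the mean of the mutants, 12 of them without overlap and 3 past the test. Their median change was -1.30, and their mean level was 7.68 to 8.33 in WT against 6.43 to 6.91. WT replicate 3 was the lowest WT array for these and for the lens markers, and without it the photoreceptor median was -1.62. Over 10 lens markers the median change was -0.98, with all below 0 and 9 below WT without overlap. Over 11 brain and neuron markers it was -0.20, with 7 below 0 and 6 below WT without overlap. Over 9 liver markers it was -0.22, with 8 below 0 and 5 below WT without overlap. Of all genes, 55.0% had a change below 0. The mean level was 6.05 to 6.67 in WT and 5.12 to 5.65 in *il7r*-/- larvae for the lens, 7.98 to 7.99 and 7.76 to 7.88 for the brain and 3.70 to 3.87 and 3.53 to 3.56 for the liver. Of 5 red blood cell markers, 4 had a change above 0, 2 of them without overlap. Their median was 0.21, or 0.105 without *il7r*-/- replicate 2, and their mean level was 5.08 to 5.15 in WT and 5.12 to 5.46 in *il7r*-/- larvae. Some lens and liver markers were dim, so their changes are uncertain. The dimmest, *cryaba*, had a mean of 2.29, with 2.35 for *hpx*, 2.575 for *ambp*, 2.86 for *crygm2d1* and 3.255 for *ttr*. Among the liver markers *ambp* had the largest change, at -0.50 without overlap. The array medians were 3.41 to 3.44. In RNA of whole larvae, fewer cells of a type and less RNA per cell cannot be told apart, and the part of these markers in the enzyme changes was not tested.

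**Figure D3:**
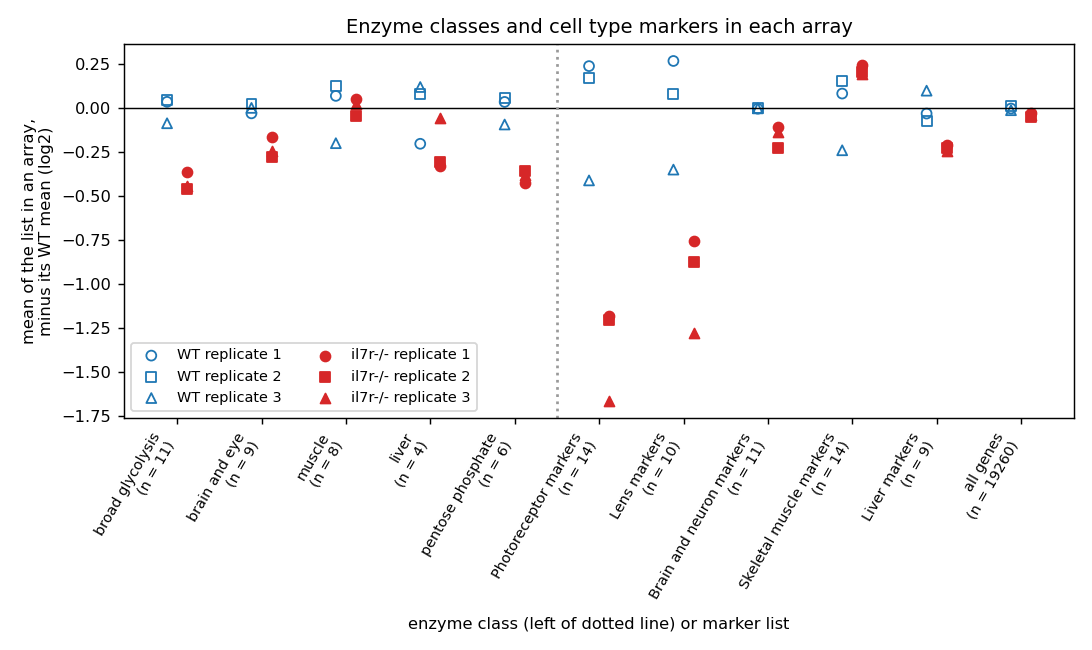
Mean log2 value of each enzyme class (left of the dotted line), of the marker lists except red blood cells and of all genes in each array, minus the mean of the 3 WT arrays. The il7r-/- arrays of the broad, brain and eye and pentose phosphate classes lie below all WT arrays, as do those of all genes. In the muscle class the il7r-/- arrays lie among the WT arrays, and the photoreceptor and lens markers lie farthest below.

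Since paralogs are read from the same arrays, the difference between a pair within each array compares their changes directly. Levels of different probe sets cannot be set against each other, so what follows concerns differences of changes. Of 15 pairs compared, 6 had differences that did not overlap between the groups. The share over all possible pairs of genes was not worked out. The widest was *pkma* minus *pkmb*, at -0.58, -0.79 and -0.16 in WT and -1.74, -1.68 and -1.43 in *il7r*-/- larvae, a difference of changes of -1.11 (standard error 0.21). *aldoaa* minus *aldoab* was next, at 0.44, 0.05 and 0.59 in WT and -0.37, -0.50 and -0.38 in *il7r*-/- larvae, a difference of -0.78 (standard error 0.17). In both pairs every mutant array lay below every WT array. The differences were 0.42 for *gapdh* minus *gapdhs* (standard error 0.06), -0.42 for *ldha* minus *ldhba* (0.11), -0.41 for *eno2* minus *eno3* (0.12) and -0.34 for *tkta* minus *tktb* (0.11). For *gapdh* minus *gapdhs* the values were -1.48, -1.39 and -1.36 in WT and -1.06, -0.91 and -0.99 in *il7r*-/- larvae, and for *ldha* minus *ldhba* they were 1.61, 1.70 and 1.74 against 1.19, 1.13 and 1.46. The *ldhba* values behind the last pair were 6.32, 6.36 and 6.09 in WT and 6.23, 6.24 and 6.18 in *il7r*-/- larvae, which overlapped. Each of these 6 gave p = 0.1 in a two-sided exact permutation test over the arrays, the smallest p that 3 arrays against 3 allow, so none can pass at 0.05. Without WT replicate 3 the difference was -0.93 for the *pkm* pair and -0.66 for the aldolase pair. The changes of *gpia* and *gpib* were close, with a difference of 0.06 (standard error 0.12, exact p = 0.6) that turned to -0.02 without WT replicate 2.

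**Figure D4:**
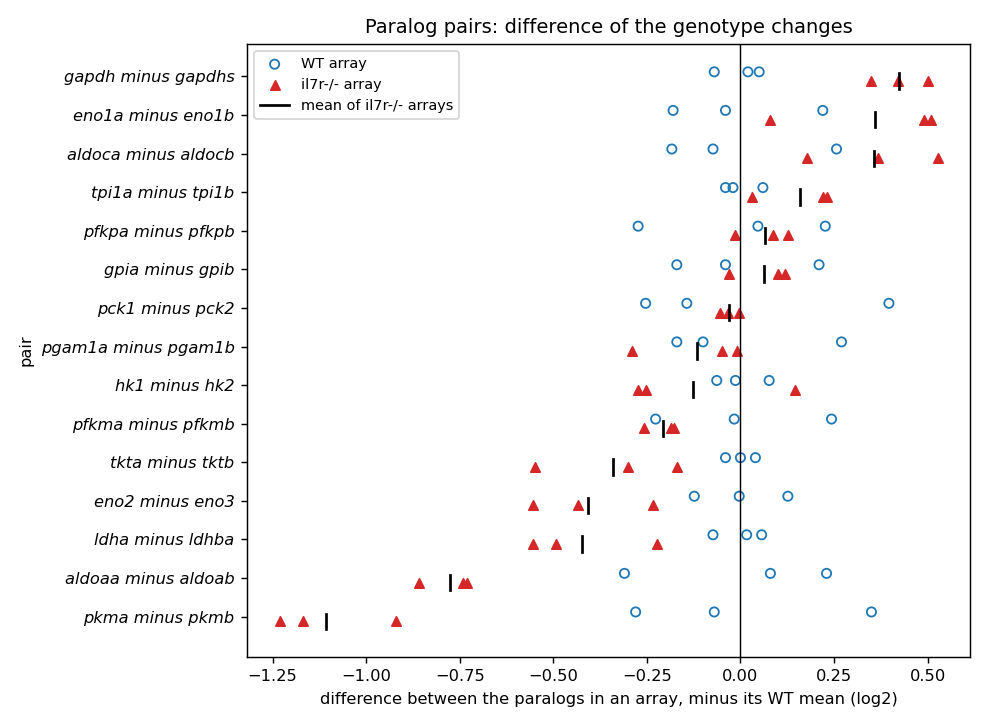
Difference between the log2 values of 2 paralogs in each array, minus its mean in the 3 WT arrays, for the 15 pairs. Bars mark the mean of the il7r-/- arrays, which runs from -1.11 for pkma minus pkmb to 0.42 for gapdh minus gapdhs.

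Other genes of sugar metabolism had smaller changes in the median. Of 55 such genes, which hold the regulators of phosphofructokinase, the pyruvate dehydrogenase complex and its kinases, the pyruvate and lactate carriers and the hypoxia factors, 50 were measured. None was called by limma in either direction, where 0.182% of all genes were called lower and 0.0519% higher. At an unadjusted p under 0.05, 6 passed, a share near the 12.3% of all genes. The change was below 0 in 38 of the 50, against 55.0% of all genes. Their median was -0.12. In 10 the groups did not overlap, all of them lower in *il7r*-/- larvae. Over all genes 13.4% were lower and 8.84% higher without overlap. Among the brighter genes 19.1% were lower without overlap, but some of the 50 were dimmer than that set. The lowest was *slc16a1a*, a carrier of lactate and pyruvate, with values of 4.51, 4.58 and 4.61 in WT and 3.96, 4.07 and 4.29 in *il7r*-/- larvae, a change of -0.46 (adjusted p = 0.239 from limma) without overlap. *g6pca.2*, a paralog of *g6pca.1*, had a change of -0.44 with overlap, and *hif1al* had -0.40. *hif1ab*, a hypoxia-inducible factor gene whose protein activates glycolytic genes in mammals, had values of 7.83, 7.88 and 7.62 in WT and 7.45, 7.43 and 7.42 in *il7r*-/- larvae, a change of -0.34 that did not pass (adjusted p = 0.319). *hif1ab* was named after its values were seen, and its part in the enzyme changes was not tested. Another hypoxia factor gene, *hif1al2*, went the other way, with a change of 0.27 and overlap. Larger changes than that of *hif1ab*, also without overlap, were seen for *prps1a* (-0.38) and *pcxb* (-0.37).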

How the data were processed

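The authors extracted total RNA from larvae at 4 dpf, hybridized it to Affymetrix Zebrafish Gene 1.0 ST arrays and analysed them in Expression Console, and the submitters' processing notes name RMA. The deposited values have no stated log base and were read as log2 from their range. The version of RMA, the annotation and the genome build are not given in the sources used here. Genes were taken from the platform's probe-to-gene table, and the 855 probe sets that name several genes were given to none. Values were fitted as deposited with limma 3.58.1 in R 4.3.3 (lmFit and eBayes, two-sided, genotype as the factor, all 6 arrays, no filter), in place of the methods' one-way ANOVA, which was an alternative. Changes of paralogs were compared by an exact permutation test. The fit was also run on simulated data with log2 changes of 1 and 2. These are larger than any change of the list, so that run does not bear on changes of the size reported here. Isoenzyme classes mostly follow the mammalian namesakes. The exceptions are *gapdhs* and the *pkm* pair, placed with the genes of broad use, and *ldhba*, placed with the brain and eye forms. The members, lists and classes were chosen with earlier results of these data known. Values in each array are given for the gene that passed, for the 4 genes with the largest change in each class and for both genes of the 4 pairs that differed most. Among the brain and eye forms *hk1* and *pfkpb* tied at -0.30, and both are given. Those of *eno1a* are given as well, outside these rules. Of other pathway genes, the 3 with the largest change are named, and *hif1ab*, *hif1al2*, *prps1a* and *pcxb* were added after their values were seen. The 3 replicates are separate batches of larvae according to the methods, and with so few arrays the precision is limited. Promoter motifs and protein sequences were not used here.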

Additional observations from a re-analysis of the deposited data

How the results depend on the processing

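Under every alternative run, no gene of the list was called higher, and the list's median stayed below 0 (-0.34 to -0.24 without each array, with -0.24 without *il7r*-/- replicate 3). The number called lower was 1 in the analysis reported, 6 by the methods' ANOVA without adjustment and 0 with it, 3 with an intensity trend and robust prior, 3 with array weights, 2 without the lowest tertile of probe sets, 4 in the refit to probe sets that name 1 gene, and 0 after quantile normalization or with adjustment over those probe sets alone. It was 0 to 1 without each array, and 1 without WT replicate 3, where 50 of all 19260 genes were called lower. Without each other array 0 to 2 of all genes were. The share of all genes called was not worked out with the trend and robust prior, with array weights or without the lowest tertile. Those counts of 3, 3 and 2 are thus not read as results about the enzymes. Leaving out arrays for the marker lists was added after seeing the data. The deviations of same-numbered arrays correlated at -0.00808, 0.00339 and 0.0229, so no signal shared by replicate number was seen. These correlations cannot tell whether WT and *il7r*-/- arrays were paired by batch. With replicate number as a replicate block, 0 of the 38 genes of the list were called (adjusted p = 0.191 from limma for *gpia*). Signs turned in these genes and pairs with values near 0, given with their range without each array where that range crossed 0. The change ran from -0.07 to 0.17 for *aldoca*, -0.083 to 0.0017 for *eno2*, -0.28 to 0.07 for *g6pca.1*, -0.12 to 0.012 for *ldhba*, -0.20 to 0.010 for *pfkma* and -0.18 to 0.04 for *rpia*. The difference ran from -0.022 to 0.17 for *gpia* minus *gpib*, -0.16 to 0.17 for *pck1* minus *pck2*, -0.07 to 0.18 for *pfkpa* minus *pfkpb* and -0.20 to 0.018 for *pgam1a* minus *pgam1b*. After quantile normalization *gapdh* had 0.029. The difference for *pck1* minus *pck2* was 0.052 with array weights. Dim genes such as *g6pca.1* have uncertain changes. The causes were not tested.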

Other observations

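The probe sets that name several symbols, and so were not used above, gave these values. That of *pgam2* and *rpl17* had a change of 0.01, and that of *rpe* and *prlh* -0.28 without overlap. The probe set shared by *fbp1b* and *erlin2* had values of 4.24, 4.18 and 4.60 in WT and 3.51, 3.38 and 3.63 in *il7r*-/- larvae, a change of -0.83 (adjusted p = 0.113 from limma). All mutant arrays were lower, and the probe set does not tell which of these genes differs. The probe set that names *pklr* under 2 spellings had values of 4.75, 4.17 and 4.46 in WT and 4.85 to 5.02 in *il7r*-/- larvae, a change of 0.50 without overlap (adjusted p = 0.324). Of the 38 measured enzyme genes, *pgk1* and *aldocb* lie on the same chromosome as *il7r* in the RefSeq annotation of the GRCz12tu assembly, and the other 36 do not.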
